A study of Homo sapiens with 4 samples.

Results

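The loci described here are those of FOXA1, FOXA2 and FOXA3, the 3 genes of the FOXA family of forkhead transcription factors, in a map of GATA4 occupancy. A locus was the gene body with 100 kb on either side, in genome build hg19, and its members were all deposited GATA4 intervals that overlapped it by 1 bp or more. This gave 10 of the 21308 intervals in the list: 1 at FOXA1, 9 at FOXA2 and 0 at FOXA3. The rule rests on gene positions and uses no measured value.

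GATA4 was mapped by CUT&RUN, in which an antibody brings a nuclease to the protein in permeabilised cells and the released DNA is sequenced. The cells were PaTu8988S, an established line from a pancreatic adenocarcinoma, and the 4 libraries formed 1 group, each from 500000 cells with 10 ug of the GATA4 antibody MAB2606. The labels name no treatment or genetic change, and no library with another antibody or without one was analysed here. The deposited list gives the positions of peaks common to the 4 libraries, with neither a score nor a read count, so values per library, their spread and the depth behind an interval are unknown. Because the list holds no expression values, the cell label could not be checked against marker genes, nor could the level of any FOXA gene.

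FOXA proteins are called pioneer factors because they can bind their sites on DNA wrapped around nucleosomes, after which the chromatin becomes accessible to other factors. In endoderm they act beside GATA4 and GATA6, zinc-finger factors that share many of their enhancers. FOXA1 and FOXA2 overlap in function during the development of liver, pancreas and lung in the mouse, and FOXA3 is best known from liver, where it takes part in glucose metabolism. By its title, the series is about loss of GATA4 and GATA6 in pancreatic cancer and the classical programme, an epithelial and endoderm-like state of these tumours.

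By the gene positions of the selection, GATA4 intervals lay just upstream of FOXA1 and FOXA2, while FOXA3 stood in a stretch with no interval. The interval nearest to FOXA1 ended 729 bp before the gene start, and the one nearest to FOXA2 218 bp before it. FOXA2 is 1033 bp longer in the RefSeq gene table than in the selection. Its nearest interval may therefore overlap the gene as that table has it. FOXA3 was 147 kb from its nearest interval. None of the 3 gene bodies, as the selection gives them, was overlapped by an interval. How often stretches as short as these genes hold no interval was not measured. By the same positions, 5 of the 10 intervals lay upstream of their gene and 5 downstream, the downstream ones all at FOXA2. As intervals carry no signal, these values say where GATA4 peaks were listed, not how strongly it was bound.

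**Figure D1:**
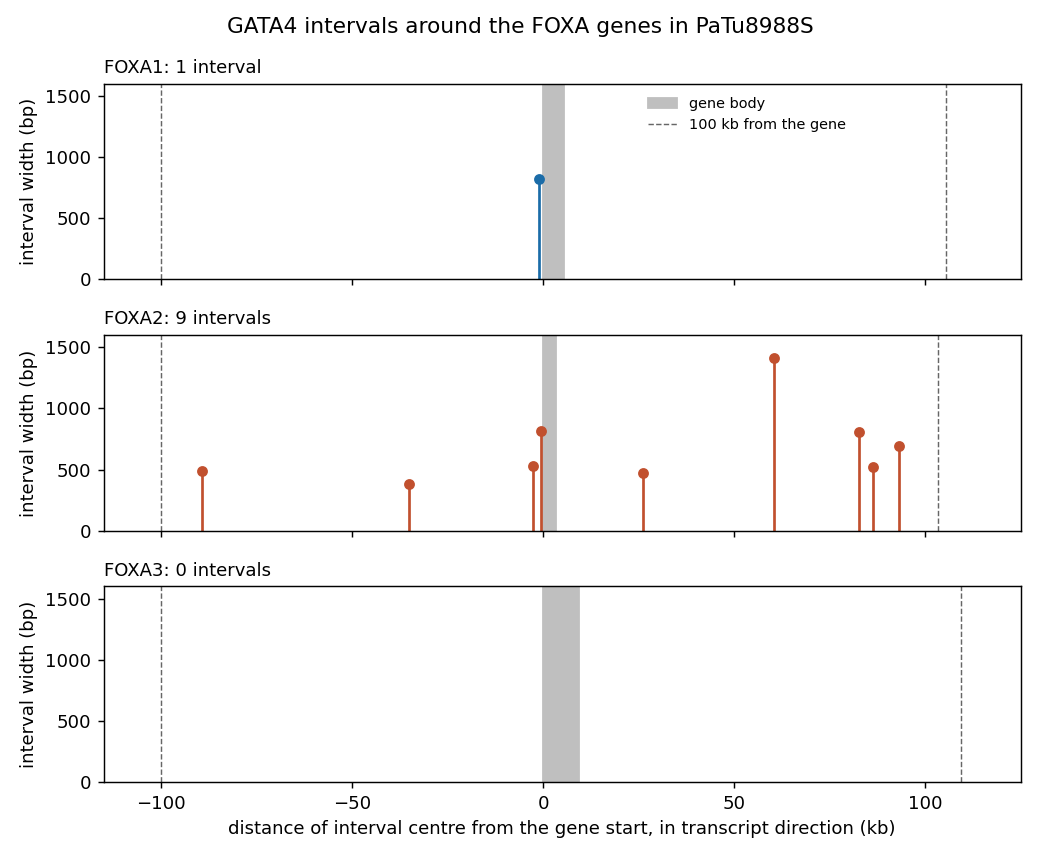
Position and width of every GATA4 interval at the 3 FOXA loci. The x axis is the distance of the interval centre from the gene start in kb, read in transcript direction, and the height of each point is the interval width in bp. The gray band is the gene body. FOXA1 has 1 interval beside its start, FOXA2 has 9 on both sides, and FOXA3 has 0.

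FOXA1, which is also known for opening chromatin to steroid hormone receptors in breast and prostate, runs on the minus strand of chromosome 14 from 38058757 to 38064325. Its single interval lay at chr14:38065054-38065873 (hg19), was 819 bp wide and covered the stretch from 729 to 1548 bp upstream of the gene start. Positions within 729 bp of an interval, those inside intervals included, made up 1.87% of chromosome 14 between its first and last interval. How often an interval lies this close to a gene start in general was not measured, since gene starts of hg19 were not used beyond these 3 genes. The interval was wider than most of its chromosome: 24.8% of the 810 intervals of chromosome 14 were wider, and the chromosome's quartiles were 424 and 818.5 bp around a median of 573.5 bp.

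The FOXA1 interval stood alone. The next interval towards and past the gene lay 266 kb away and the next one on the upstream side 372 kb away. On chromosome 14, 23 of 810 intervals (2.84%), this one included, were at least as far from their nearest neighbour. Out to 200 kb from the gene body it was still the single interval, out to 500 kb there were 3, and out to 1 Mb there were 5. The next gene on the upstream side is TTC6 and the next protein-coding gene on the downstream side is MIPOL1, in the order of the RefSeq gene table. The interval was not placed relative to TTC6, so it cannot be assigned to FOXA1 over this neighbour.

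The stretch just before the gene start is shown for FOXA1, whose interval lies upstream of it, and for FOXA3, which has none, so that both can be read for GATA and forkhead words. The sequences are from RefSeq on GRCh38.p14, another build than that of the intervals, and were matched by symbol for 2 of the 3 genes, FOXA1 and FOXA3. FOXA1 is at chr14:37595250-37595499 on the minus strand and FOXA3 at chr19:45864076-45864325 on the plus strand, each printed 5′ to 3′ over the 250 bases before the gene start. Capitals mark forkhead words, and no GATA word was found to mark.
FOXA1: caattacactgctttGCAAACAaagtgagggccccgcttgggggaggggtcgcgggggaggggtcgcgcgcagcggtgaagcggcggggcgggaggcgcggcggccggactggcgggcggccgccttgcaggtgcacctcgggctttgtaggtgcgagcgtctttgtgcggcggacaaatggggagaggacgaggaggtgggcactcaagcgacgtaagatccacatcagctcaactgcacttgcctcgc
FOXA3: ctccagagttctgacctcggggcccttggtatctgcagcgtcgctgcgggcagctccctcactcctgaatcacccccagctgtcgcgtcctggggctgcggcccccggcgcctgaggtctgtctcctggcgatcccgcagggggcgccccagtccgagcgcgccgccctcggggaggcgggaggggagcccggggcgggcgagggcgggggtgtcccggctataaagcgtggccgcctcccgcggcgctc
The FOXA1 sequence held 1 forkhead word, TGTTTGC on the opposite strand, which reads GCAAACA as printed. The search covered 300 bases, from 250 before to 50 after the start, on both strands, for the forkhead words TGTTTAC and also TGTTTGC, and for 4 GATA words. These were AGATAA, then the form AGATAG, and with a leading T the words TGATAA, then also TGATAG; words of both strands were counted and overlaps between words were allowed. FOXA3 held 0 forkhead words, and both held 0 GATA words. Of 35116 promoters of the same length, 7.17% held a forkhead word (3.89% held TGTTTGC) and 25% a GATA word. Both were rich in G and C, at 69.3% for FOXA1 and 76.3% for FOXA3, against a median of 58.7% over all promoters. The FOXA1 interval began beyond the 250 bases searched, by the gene start of the selection, so these letters are beside the interval and not within it. A word is a match of letters, and its absence says nothing about binding.

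FOXA2, a regulator of foregut endoderm that acts upstream of PDX1 in the mouse pancreas, had the most intervals. It runs on the minus strand of chromosome 20 from 22561642 to 22565101, and its 9 intervals were between 385 and 1416 bp wide. The nearest lay at chr20:22565319-22566138, was 819 bp wide and covered 218 to 1037 bp upstream of the gene start. Positions within 218 bp of an interval, those inside intervals included, made up 3.52% of chromosome 20 between its first and last interval. As for FOXA1, how often an interval lies this close to a gene start in general was not measured. Read from the gene starts of the selection, the FOXA1 and FOXA2 intervals both covered the stretch from 729 to 1037 bp upstream. This shared stretch rests on the FOXA2 start used and could be lost with another one. A further interval at chr20:22567513-22568042 (529 bp) followed after a gap of 1375 bp. A pair of them thus lay just before the FOXA2 start of the selection.

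The start used for FOXA2 bears on these distances. The RefSeq table gives FOXA2 a length of 4493 bp on GRCh38.p14, which is 1033 bp more than the 3460 bp of the selection. Where those bases lie was not resolved, and they exceed the 218 bp between gene and interval, so whether the interval overlaps the gene as that table has it is unknown. The same difference was 129 bp for FOXA1, less than the 729 bp to its interval, and -66 bp for FOXA3.

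Farther upstream of FOXA2, an interval at chr20:22599988-22600373 (385 bp, the narrowest of the 9) lay 34.9 kb from the gene and one at chr20:22654158-22654648 (490 bp) lay 89.1 kb from it. Downstream, the nearest was chr20:22538729-22539205 (476 bp), 22.4 kb past the gene end. The widest, chr20:22504040-22505456, was 1416 bp wide and lay 56.2 kb past the gene end; 8.35% of the 1832 intervals of chromosome 20 were wider. It was the only one of the 9 above the upper quartile of that chromosome, 979.5 bp. The last 3 formed a group within 11.5 kb: chr20:22482138-22482945 (807 bp), chr20:22478406-22478926 (520 bp) and chr20:22471444-22472138 (694 bp), from 78697 to 90198 bp past the gene end. With intervals up to 12.5 kb apart linked, the 9 fell into 6 groups, of which the largest held 3 and 4 held a single interval. Counted outward from the gene body, FOXA2 had 2 intervals within 10 kb, 4 within 50 kb and 14 within 200 kb.

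FOXA2 has non-coding neighbours on both sides in the RefSeq gene table. LINC00261, a long non-coding RNA of endoderm, follows on the downstream side, and LNCNEF, another one, on the upstream side; the next protein-coding gene on the downstream side is PAX1, a paired-box factor. The 5 downstream and 4 upstream intervals were not placed relative to the non-coding genes.

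By width the FOXA2 intervals were ordinary. Their median was 529 bp, against 685 bp for chromosome 20 (quartiles 489 and 979.5 bp) and 586 bp for the list's autosomes and chromosome X. Of the 9, 4 reached the median of their chromosome. Intervals covered 3.02% of the FOXA2 locus, against a median of 0.62% and quartiles of 0 and 1.72% over the windows of equal length on its chromosome. For FOXA1 the covered share was 0.398%, against a median of 0.208% and quartiles of 0 and 0.75%.

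FOXA3 runs on the plus strand of chromosome 19 from 46367518 to 46377055, and the list placed no interval within 100 kb of it. The nearest ones were chr19:46220536-46220975 (439 bp), 147 kb upstream, and chr19:46571761-46572225 (464 bp), 195 kb downstream. The empty stretch between them was 350.8 kb long. Of the 960 gaps between neighbouring intervals on chromosome 19, 36 (3.75%) were at least as long. A long gap takes up more of a chromosome than a short one, however. On chromosome 19, 33.9% of positions between the first and last interval were at least as far from an interval as the FOXA3 start. Stretches where reads cannot be placed were not left out of these positions, so this share may be too high. Out to 1 Mb from FOXA3 there were 14 intervals, 3 at lower and 11 at higher positions. The genes next to FOXA3 in the RefSeq gene table are SYMPK, a scaffold of the RNA 3′-end processing machinery, and IRF2BP1, a transcriptional corepressor.

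**Figure D2:**
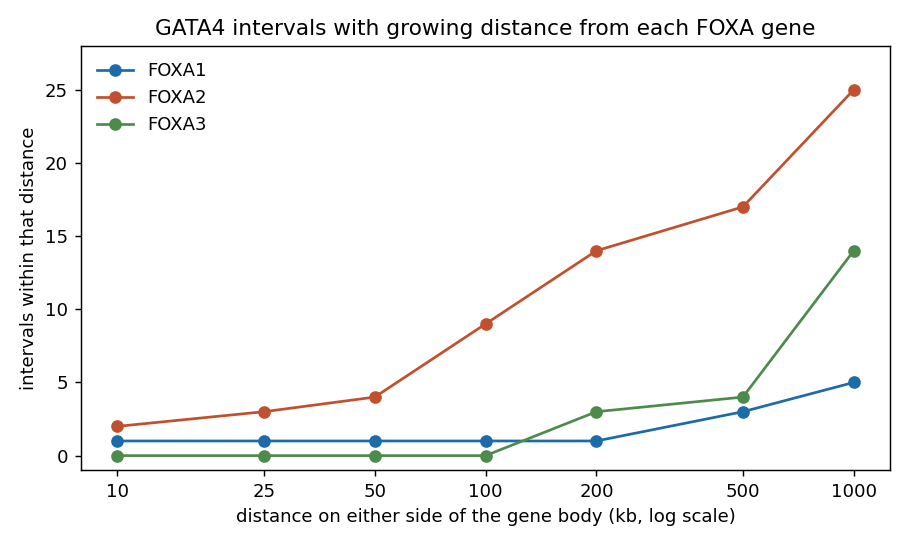
Number of GATA4 intervals within a given distance of each FOXA gene body. The x axis is the distance on either side in kb on a log scale and the y axis the number of intervals. FOXA2 has the most at every distance, with 25 intervals within 1 Mb. FOXA3 has 0 up to 100 kb and 14 within 1 Mb, and FOXA1 has 1 up to 200 kb and 5 within 1 Mb. Counts are not adjusted for the density of each chromosome. At 1 Mb, 46.7% of windows of chromosome 20 held as many as FOXA2 or more.

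Each locus was then set beside windows of the same length that adjoined it along its chromosome, between the first and the last interval. The FOXA1 window was 205.6 kb long, and 58.5% of 429 windows of chromosome 14 held 1 interval or more, so a count of 1 was at the median. The FOXA3 window was 209.5 kb long, and 58.7% of 281 windows of chromosome 19 held 1 interval or more. The empty FOXA3 window was thus 1 of 116 empty windows (41.3%). Stretches where reads cannot be placed were not left out of the windows of any chromosome. Shares of empty windows may therefore be too high. Within 5 Mb of the FOXA3 locus, 15 of 47 windows (31.9%, FOXA3 included) were empty and the median was 2, against a median of 1 over the chromosome. Within 5 Mb of the FOXA1 locus, 23 of 49 windows (46.9%) held 1 interval or more, with a median of 0.

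FOXA2 was on the fuller side of its chromosome. Its 203.5 kb window held 9 intervals, or 44.2 per Mb, against 29.3 per Mb over chromosome 20, a median of 2 per window and quartiles of 0 and 5. At least 1 interval was found in 74.3% of the 307 windows of chromosome 20, and 9 or more in 17.6%. Chromosome 20 is unevenly filled, with up to 74 intervals in a window, so nearer ground was compared here too. Within 5 Mb of the FOXA2 locus, 4 of 49 windows (8.16%, FOXA2 included) held 9 or more, with a median of 2. The others of these 4 lay side by side, with 15, 14 and 33 intervals, next to a run of empty windows. Whether reads can be placed in that run was not examined. Over all autosomes and chromosome X the share was 2.90%. With 1 Mb on either side of the gene, where FOXA2 had 25 intervals, 46.7% of windows of chromosome 20 held as many or more. Windows are not replicates and no test was made, so these shares are descriptions.

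**Figure D3:**
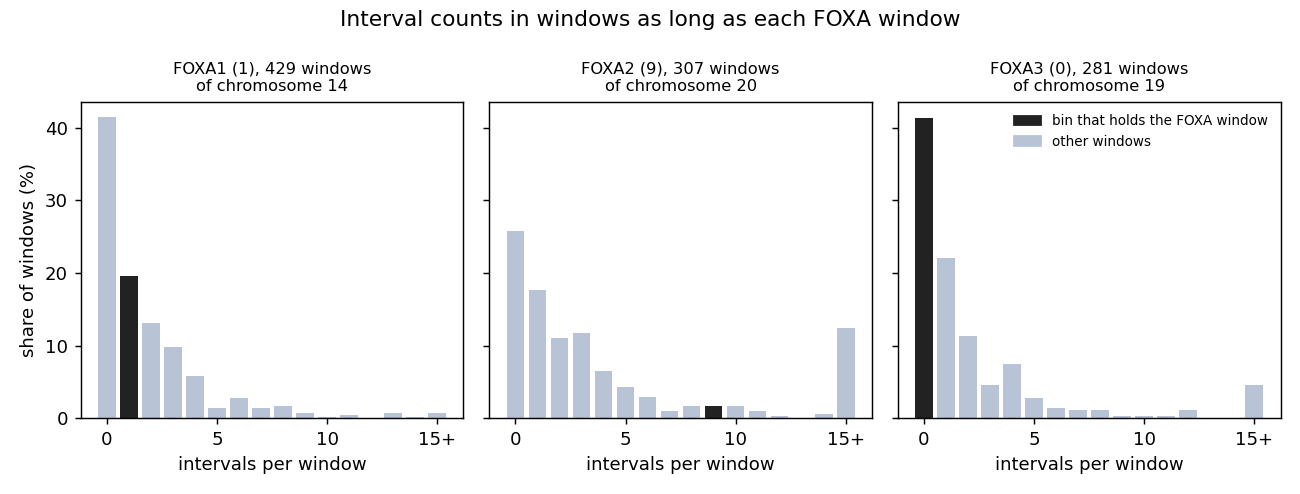
Distribution of interval counts over windows as long as each FOXA window and on the same chromosome. The x axis is the number of intervals per window, with 15 or more in the last bar, and the y axis the share of windows in percent; the black bar is the one that holds the FOXA locus. The locus falls at 1 on chromosome 14, at 9 on chromosome 20 and at 0 on chromosome 19.

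The chromosomes differ in how densely intervals were listed, at 29.3 per Mb on chromosome 20, 16.3 on chromosome 19 and 9.18 on chromosome 14, so the counts of 9, 0 and 1 do not compare the 3 genes on equal ground. DNA copy number along these chromosomes was not measured, and its part in the counts was not tested.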

How the data were processed

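The 4 CUT&RUN libraries were used as the authors' single list of common peaks. The submitters' processing notes name build hg19, the peak caller SEACR and the annotation package HOMER. Neither versions nor parameters, the aligner or the overlap required of a common peak were found in those notes or the labels. The deposited file holds chromosome, start and end in bp, with no other unit. Whether starts count from 0 or 1 is not stated, so distances and widths (end minus start) may be off by 1 bp.

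Gene positions were those of the selection, and the members and settings were chosen with earlier results of these data known. Intervals on the 22 autosomes and chromosome X (21139) gave widths and windows. Intervals were named by rule: all of them where a locus held up to 12. Windows adjoined the locus, lay wholly between the first and last interval, and counted intervals that crossed an edge in both. FOXA2's strand is textbook knowledge; the others are from RefSeq. An hg19 annotation was not used, so a planned list of other endoderm regulators was not counted. Computation was in Python 3.11.15 with pandas 2.3.3, numpy 2.4.6 and scipy 1.17.1, and figures were drawn with matplotlib 3.10.9; window counts and distances were tested on simulated data.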

Additional observations from a re-analysis of the deposited data

How the results depend on the processing

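Of 59 recomputed values, 29 stayed the same by the limits used and 30 moved. Some of the 29 could not have moved. A FOXA3 count of 0 stays 0 with 50 kb, with wider intervals only, after merging or by interval centres. The lone FOXA1 interval fixes its count and median width under the same settings. The numbers of same and moved values therefore do not measure how stable the results are. A count was the same within 1.5 times, a share of windows or covered bp within its 95% binomial interval, and a median width when identical. For shares of windows that interval covers counting error only and takes windows as independent. For coverage it takes each bp as independent. Covered bp come in whole intervals, so this limit is too narrow and small shifts in coverage count as moved. The FOXA1 count was 1 in all settings but 1 Mb on either side, where it was 5. The FOXA3 count was 0 with 50 kb, 3 with 200 kb (0.365% covered) and 14 with 1 Mb. The FOXA2 count was 4 with 50 kb, 14 with 200 kb, 25 with 1 Mb and 4 at or above the list's median width; its coverage was 2.14%, 2.31% and 1.84% with 50 kb, 200 kb and the wider intervals, and its median width 502.5, 568 and 813 bp. FOXA1 coverage was 0.776% with 50 kb and 0.202% with 200 kb.

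The share of windows with at least as many intervals as FOXA1 was 58.5%. It was 43.5% with 50 kb, 70.5% with 200 kb, 77.3% with 1 Mb and 36.8% for intervals at or above the median width. Over all chromosomes it was 41.1%, by covered bp 39.2% and within 5 Mb 46.9%. Without empty windows it was 100.0% by construction, as FOXA1 has a count of 1, though this value is among those that moved. The share for FOXA2, 17.6%, was 46.7% with 1 Mb, 23.2% for the wider intervals, 23.7% without empty windows, 2.90% over all chromosomes and 8.16% within 5 Mb. For FOXA3, with a count of 0, this share is 100% by construction and was not recomputed; its share of empty windows, 41.3%, was 31.9% within 5 Mb. Merging intervals within 1 kb, counting by interval centres and overlapping windows left the values within these limits. Windows of 1 Mb and those within 5 Mb were chosen after seeing the data. Leaving out a library was not possible on a pooled list. No paired analysis was possible because the single list holds 1 group. Depth is unknown, so a locus without an interval shows only that none common to the 4 libraries was listed.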

Other observations

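The intervals nearest to FOXA1 and FOXA2 had the same width of 819 bp. In the list's autosomes and chromosome X, 14 intervals had that width, these included.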
